A study of Mus musculus with 2 samples.

Results

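The miRNAs described here are the rodent miR-297, miR-466, miR-467 and miR-669 families, most of whose hairpins lie in 1 intron of the polycomb gene Sfmbt2. They were taken by name: every row called miR-297, miR-466, miR-467 or miR-669 followed by a letter, all arms. This gave 70 of the mature miRNAs listed in 2 small RNA libraries of mouse helper T cells, 67 listed in Th0 and 65 in Th17, with 62 in both. The starting cells were naive splenic CD4+CD62L+ T cells of C57BL/6 females, cultured with 10% serum. The Th0 (control) culture received 1 µg/ml of anti-CD28 with 5 µg/ml of anti-IL-4 and of anti-IFN-γ. The Th17 culture received these 3 antibodies at the same doses. It also had 5 µg/ml of both anti-IL-2 and anti-IL-12, 2 ng/ml of TGF-β, 10 ng/ml of IL-1β, and 40 ng/ml of both IL-6 and IL-23, and was kept for 6 to 7 days. The labels used here give neither the length of the Th0 culture nor the age of the mice, so culture time and Th17 conditions cannot be told apart. The labels speak of triplicates, but the files hold 1 column of reads per group. Th0 listed 986 miRNAs with 8358010 reads and Th17 listed 1012 with 11975371. Each interval below is therefore an exact 95% interval of counting error within these 2 libraries. The spread between cultures is unknown, so no difference could be set against it, and no p-value is given. Reads amplified without molecular identifiers are not independent molecules.

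A miRNA hairpin is cut by Drosha and Dicer into a duplex with a 5p and a 3p arm, and Argonaute keeps mainly one of them. The kept strand pairs with target mRNAs chiefly through its seed, bases 2 to 8. Sfmbt2 encodes a polycomb group protein and is expressed from the paternal allele in early mouse embryos and placenta. One of its introns carries a large array of hairpins that is found in rodents and is rich in alternating CA and UG repeats. The array is best known from placenta and embryonic stem cells.

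RefSeq sequences (GRCm38.p6) were matched by name for 4 of the 70 members, all of the miR-466 family and all from hairpins outside Sfmbt2. They are shown because they make the repeat character of the family visible. They read 5′ to 3′, with the seed in capitals.
miR-466i-3p: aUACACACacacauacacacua
miR-466q: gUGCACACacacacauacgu
miR-466k: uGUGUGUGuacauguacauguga
miR-466j: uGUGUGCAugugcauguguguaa
miR-466i-3p and miR-466q were of the CA type, with 0% and 15% G and 36.4% and 35.0% C. miR-466k and miR-466j were of the UG type, each with 39.1% U. The 4 seeds differed from each other, and no miRNA of the series outside the families with a sequence in the table had any of them. Across the 935 miRNAs of the series with a sequence, 8 (0.856%) held CACACACA or UGUGUGUG, and 3 of those were members: miR-466i-3p, miR-466k and miR-466q. The Mir466k hairpin, at chr3:85467377-85467498 on the plus strand, shows the repeat on both sides of the mature strand, which is in capitals.
Mir466k hairpin: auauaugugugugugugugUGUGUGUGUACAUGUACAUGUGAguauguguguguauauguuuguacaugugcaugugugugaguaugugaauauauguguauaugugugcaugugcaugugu

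The files give 76 hairpins for the members, of which 75 had a gene in GENCODE M21 (GRCm38, the same assembly as mm10). Of these, 69 lay inside Sfmbt2 (chr2:10370510-10595253, plus strand) and on its strand. All 69 were in intron 10 of the protein-coding Sfmbt2 transcript with the longest exon sequence and overlapped no exon of any annotated Sfmbt2 transcript. They ran over 51.6 kb of an intron of 62.5 kb, from position 10466663 to 10518279. The miR-669 family had 27 of them, miR-466 had 23, miR-467 had 14 and miR-297 had 5. The middle of the array is a repeated unit: the 10 mir-467a hairpins started at a median spacing of 2.46 kb (2.41 to 4.88 kb). Among these 69 hairpins, 13 of the 14 mir-467 hairpins had a mir-466 hairpin as the next one downstream. GENCODE M21 annotates 119 miRNA genes inside Sfmbt2 on its strand, and those not listed for a member are left out of these counts. Of the 782 hairpins of the series, 758 had a gene in GENCODE M21. None of these outside the 4 families lay in Sfmbt2 on its strand. The 6 placed member hairpins outside the gene were Mir297-1 on chromosome 7, Mir466f-4 and Mir466i on 13, Mir466j on 10, and Mir466k and Mir466q on 3. Mir466q is in an intron of Tnik on its strand, and Mir466i is in an intron of Cdk13 on the other strand. The hairpin mir-466a was not matched.

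**Figure D1:**
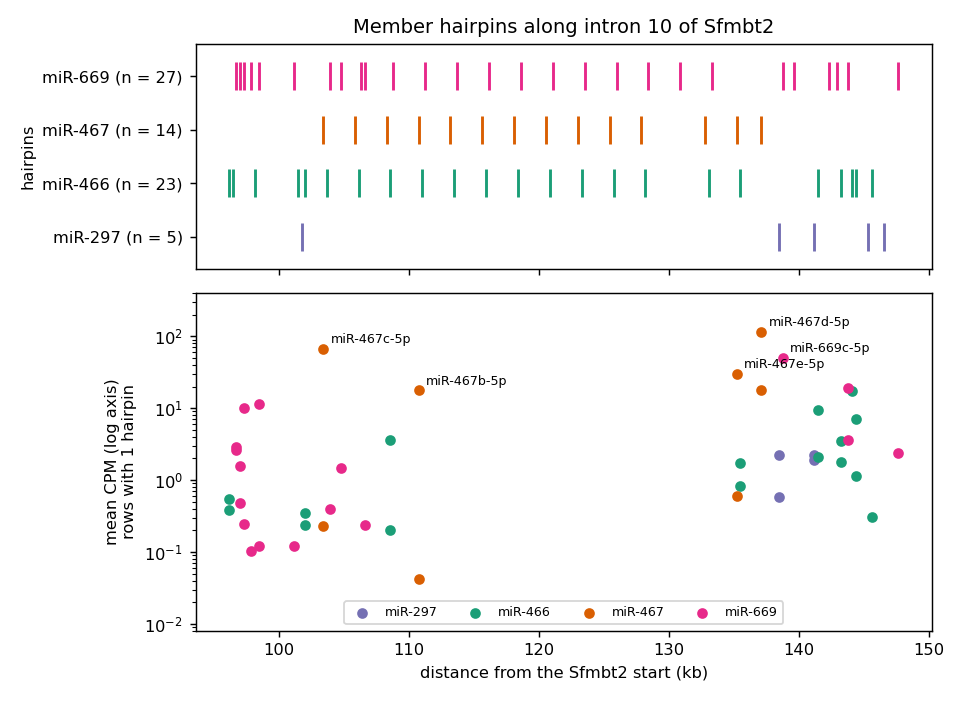
Upper panel: the 69 member hairpins along intron 10 of Sfmbt2 by family (x axis: distance from the Sfmbt2 start in kb; each tick is 1 hairpin). Lower panel: mean CPM of both libraries (log axis) for the 45 mature miRNAs with 1 hairpin in the intron, each point 1 mature miRNA. The alternating miR-467, miR-466 and miR-669 ticks mark the repeated unit, and miR-467d-5p is the highest point.

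The families were a small part of both libraries. Their reads summed to 7057 in Th0 (844 CPM, reads scaled to a library of 1000000 listed reads, or 0.0844%) and 8625 in Th17 (720 CPM, or 0.0720%). The most abundant member, miR-467a-5p, ranked 147 among all miRNAs by mean CPM. Only 3 members had a mean of at least 100 CPM, 13 lay between 10 and 100, 28 between 1 and 10, and 26 under 1. The 6 most abundant members carried 64.5% of the members' reads in Th0 and 64.1% in Th17. By family, miR-467 held 51.6% of the members' Th0 reads, miR-669 34.9%, miR-466 12.0% and miR-297 1.56%. The order was the same in Th17, at 48.1%, 36.4%, 13.4% and 2.11%. Nearly all of these reads came from names whose every hairpin is in Sfmbt2: 61 members with 6919 reads in Th0 and 8447 in Th17. The 8 members with no hairpin placed there had 111 and 140 reads, and miR-297a-5p, whose hairpins are in both kinds of place, had 27 and 38.

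Members listed for more hairpins tended to have higher levels, with clear exceptions. The median of mean CPM was 28.7 for the 6 members listed for 8 or more hairpins. It was 1.72 for the 53 members listed for 1. miR-467a-5p is listed for 10 hairpins and had 1187 reads in Th0 and 1243 in Th17, or 119 and 124 reads per hairpin. miR-467d-5p is listed for 1 hairpin and had 1009 and 1336 reads. miR-669a-5p is listed for 12 hairpins and had 980 and 1157 reads, or 81.7 and 96.4 per hairpin, whereas miR-669c-5p has 1 hairpin and 382 and 663 reads. miR-466b-5p is listed for 8 hairpins and had 23 and 14 reads. Along the intron, mean CPM of the 45 members with 1 hairpin there tended to be higher downstream (Spearman's rho 0.36 across miRNAs). Where both arms of a hairpin are among the 45, they share a position. None of the 45 lay between 110.7 and 135.2 kb from the Sfmbt2 start, so the value compares members on either side of that gap. The log2 ratio of Th17 over Th0 had no such relation (rho -0.030 over the 27 of them at 1 CPM or more). These miRNAs share libraries and a host transcript, so both values are descriptions. The sources used here do not state how reads matching several hairpins or near-identical members were assigned, and each member's level is uncertain to that extent.

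Summed over all 4 families, CPM was 1.17-fold lower in Th17 (interval 1.14 to 1.21). The 136 other miRNAs between 10 CPM and the mean of the highest member summed to 1.20-fold lower (1.18 to 1.21). The miR-467 family was 1.26-fold lower (1.20 to 1.32), from 436 to 346 CPM. The miR-669 family was 1.12-fold lower (1.07 to 1.19), from 294 to 262 CPM. For miR-466 the sums were 101 and 96.7 CPM and the interval of the fold, 0.876 to 1.05, included 1. For miR-297 they were 13.2 and 15.2 CPM, with an interval of 0.906 to 1.48. Under DESeq2 scaling the miR-669 difference shrank to a log2 ratio of -0.091. With the 10 most abundant miRNAs of the series left out of the library totals, miR-466 moved below 0 as well, to -0.19 (-0.32 to -0.063). In bulk RNA, fewer cells that hold a miRNA and less of it per cell cannot be told apart.

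None of the 16 members with a mean of at least 10 CPM differed by 2-fold in either direction. Over all 298 miRNAs at that level, 6.71% were at least 2-fold higher in Th17 and 13.1% at least 2-fold lower, with intervals excluding 1. At 1.5-fold, 0 of the 16 were higher and 1 was lower, against 16.8% and 25.5% of all. Counting by interval alone, 2 of the 16 were higher (40.6% of all) and 9 lower (47.7% of all), and 5 intervals included 1. The 9 became 8 under TMM scaling, 7 under DESeq2 scaling and 10 without the 10 most abundant miRNAs in the totals. Their median log2 ratio, with 0.5 CPM added to both values, was -0.29, beside -0.080 over the 298. Among those 136 other miRNAs the interval lay above 1 for 50 and below it for 64, and the median was -0.15. On the log2 scale the intervals of the 16 members reached 0.12 to 0.42 to either side, with a median of 0.31.

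**Figure D2:**
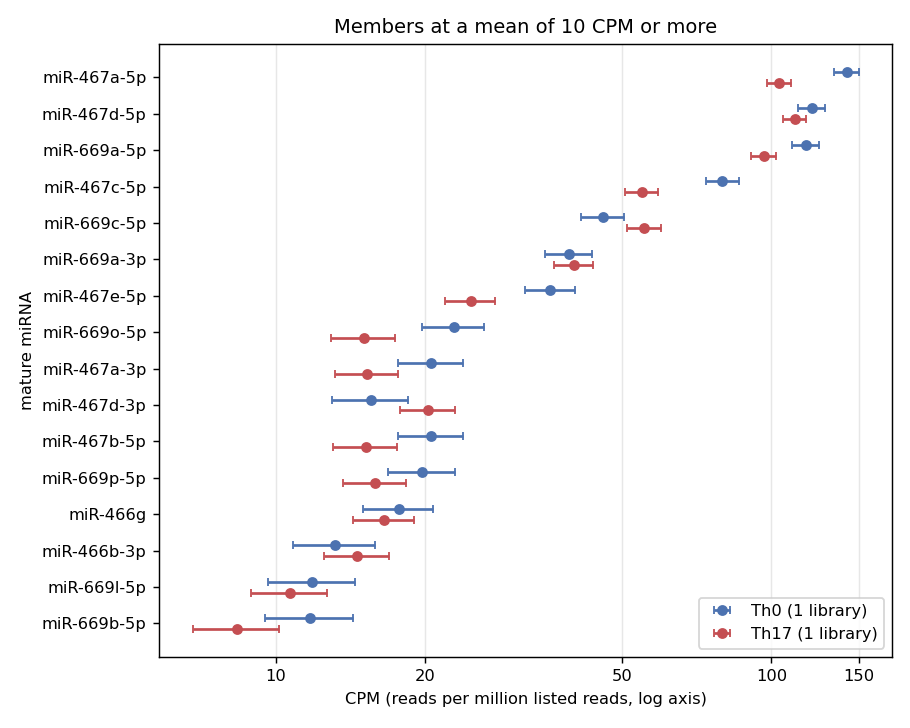
CPM of the 16 members with a mean of at least 10 CPM (x axis, log scale) in the Th0 and Th17 libraries, 1 library each. Bars are exact binomial 95% intervals. miR-467a-5p, miR-467d-5p and miR-669a-5p lead in both libraries, and the Th17 point lies to the left in 12 of the 16. Over all 298 miRNAs at that level, 159 were lower in Th17, as were 75 of the 136 non-members between 10 CPM and the highest member.

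In the miR-467 family the 5p arms carried the reads. miR-467a-5p stood at 142 CPM in Th0 and 104 in Th17, 1.37-fold lower (1.26 to 1.48). miR-467c-5p stood at 79.7 and 54.7 CPM, 1.46-fold lower (1.31 to 1.63). Both were clearly lower in the Th17 library, with intervals of the level that do not meet. Among the 16, such intervals also stood apart for miR-467e-5p, miR-467b-5p, miR-669a-5p and miR-669o-5p, which were lower, and for miR-669c-5p, which was higher. miR-467e-5p went from 35.8 to 24.7 CPM (1.45-fold lower, 1.23 to 1.71). miR-467b-5p, which has been reported to act on lipoprotein lipase in macrophages, went from 20.6 to 15.2 CPM (1.35-fold lower, 1.09 to 1.68). miR-467d-5p was the exception among the 5p arms, at 121 and 112 CPM, and its interval included 1 (log2 ratio -0.11). It was below 1 with the authors' deposited TPM values and with totals that leave out the 10 most abundant miRNAs, where the log2 ratio was -0.24 (-0.36 to -0.12). The 3p arms split: miR-467a-3p was 1.35-fold lower (1.09 to 1.67), from 20.6 to 15.3 CPM, while miR-467d-3p was 1.30-fold higher (1.05 to 1.63), from 15.6 to 20.3 CPM. The other 3 names of the family, miR-467b-3p, miR-467c-3p and miR-467e-3p, had at most 6 reads in either library.

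In the miR-669 family, miR-669a-5p went from 117 to 96.6 CPM, 1.21-fold lower (1.11 to 1.32). Members of the miR-669a group have been described as restraining muscle differentiation. Its partner arm miR-669a-3p was at 39.0 and 39.9 CPM, and the interval included 1. miR-669c-5p was the most abundant member that was higher in Th17, at 45.7 and 55.4 CPM, 1.21-fold (1.07 to 1.38). miR-669o-5p had the largest difference among the 16, from 22.9 to 15.03 CPM, 1.52-fold lower (1.23 to 1.87). miR-669b-5p was 1.40-fold lower (1.05 to 1.87), from 11.7 to 8.35 CPM, and miR-669p-5p 1.24-fold lower (1.004 to 1.54), from 19.7 to 15.9 CPM. Under DESeq2 scaling both of these intervals included 1, and that of miR-669p-5p did so under TMM scaling too. miR-669l-5p was at 11.8 and 10.7 CPM with an interval that included 1. The intervals of both members that were higher, miR-669c-5p and miR-467d-3p, came to include 1 once library totals were taken without the 10 most abundant miRNAs.

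The miR-466 family is the largest by name, with 30 members, and only 2 reached a mean of 10 CPM. miR-466g was at 17.7 CPM in Th0 and 16.5 in Th17. miR-466b-3p was at 13.2 and 14.6 CPM. Neither ratio could be told from 1. Just under that level were miR-466c-5p at 9.57 and 9.35 CPM, and miR-466d-3p at 9.21 and 9.69 CPM. miR-466h-5p, reported to promote apoptosis, was at 6.94 and 7.01 CPM. miR-466f-3p was at 5.26 CPM in both libraries. Of the 30 members, 29 had intervals that included 1, and the exception was miR-466b-5p, 2.35-fold lower (1.16 to 4.95) on 23 and 14 reads. Intervals are wide at such low counts: 116 of the 216 other miRNAs between 1 and 10 CPM had intervals that included 1. miR-466l-3p, reported to stabilise Il10 mRNA in macrophages, had 3 reads in each library. The arms miR-466i-5p and miR-466i-3p had the same count, 26 reads each in Th0 and 29 each in Th17, so they are uncertain as separate miRNAs. No other pair of members with at least 3 reads in both libraries had equal counts in both. Of the members shown by sequence above, miR-466k had 4 and 11 reads, miR-466q had 6 and 4, and miR-466j had 0 and 1.

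The miR-297 family was rare, at 110 reads in Th0 and 182 in Th17. Its 3p arms were all higher in Th17: miR-297a-3p with 27 and 57 reads, miR-297b-3p with 13 and 27, and miR-297c-3p with 15 and 32. Each of these intervals included 1, but their sum was 1.47-fold higher (1.06 to 2.07). With totals that leave out the 10 most abundant miRNAs, the interval of that sum included 1 (log2 ratio 0.43, -0.047 to 0.92). The 5p arms summed to 55 and 66 reads, and the interval of that fold (0.577 to 1.22) included 1. miR-297a-5p had 27 and 38 reads, miR-297b-5p 21 and 24, and miR-297c-5p 7 and 4.

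Below 10 CPM, 28 members had a mean of at least 1 CPM, and 4 of them had intervals below 1 while none was above. Of the 216 other miRNAs in that range, 49 had intervals below 1 and 51 above. The 4 members were miR-669k-5p, miR-669h-5p, miR-466b-5p and miR-669f-5p, all of them 5p arms. miR-669k-5p had 19 reads in Th0 and 8 in Th17, 3.40-fold lower (1.42 to 8.99). miR-669h-5p had 29 and 15 reads, 2.77-fold lower (1.44 to 5.56). These 2 and miR-466b-5p were the 3 members at least 2-fold lower among the 44 at 1 CPM or more, where 13.8% of all 542 miRNAs were; no member was 2-fold higher, against 10.9% of all. By interval alone, 13 of the 44 were lower (36% of all 542) and 2 higher (31.7%). miR-669f-5p had 32 and 23 reads, 1.99-fold lower (1.13 to 3.57). Members listed in 1 library only were near the limit of detection: miR-466o-3p and miR-669g had 4 reads in Th0, miR-466f-5p, miR-669l-3p and miR-669d-2-3p had 2 there, and miR-669m-3p had 3 and miR-466j and miR-467b-3p 1 in Th17. A floor of 3 reads, taken as the limit for a count of 0, is a level of 0.359 CPM for Th0 and of 0.251 CPM for Th17.

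Counts of higher and lower members were then taken by arm. Of the 24 5p members at 1 CPM or more, 21 were lower in Th17 and 12 of those had intervals below 1. Of the 18 3p members, 12 were higher, although 1 interval was above 1 (miR-467d-3p) and 1 below (miR-467a-3p). The 12 include miR-669o-3p at 1.0004-fold, and 11 were higher with the deposited TPM values. Summed, the 5p arms went from 682 to 554 CPM, 1.23-fold lower (1.19 to 1.28). The 3p arms were at 141 and 147 CPM, with an interval of 0.970 to 1.13; under DESeq2 scaling their log2 ratio was 0.14 (0.034 to 0.25), above 0. Over all miRNAs at 1 CPM or more, 126 of 234 5p miRNAs were lower, with a median log2 ratio of -0.088. Intervals lay below 1 for 95 of these 234 and above 1 for 77. Of 255 3p miRNAs, 128 were higher, with a median of 0.00047, and 82 intervals lay above 1 and 82 below. The members' medians were -0.37 for 5p and 0.11 for 3p. With the 10 most abundant miRNAs left out of the totals, 22 of the 24 5p members were lower and 9 of the 18 3p members higher.

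**Figure D3:**
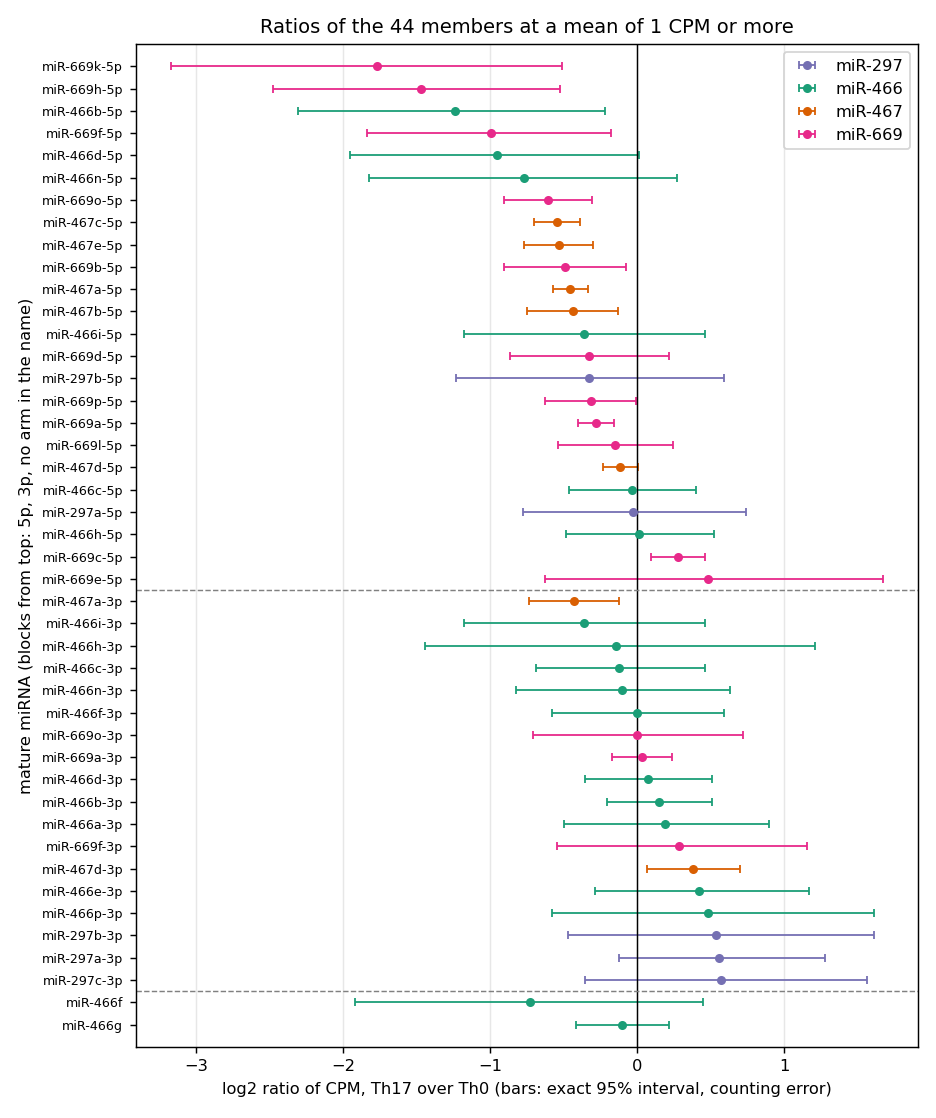
Log2 ratio of CPM, Th17 over Th0 (x axis, no pseudocount), for the 44 members at a mean of 1 CPM or more, in blocks for 5p arms, 3p arms and names without an arm, coloured by family. Bars are exact 95% intervals of counting error; 21 of the 24 points in the 5p block lie left of 0 and 12 of the 18 in the 3p block right of it.

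The arms were also compared within hairpin names. The 2 arms of a name are not always listed for the same hairpins. miR-297a-5p is listed for 4 and miR-297a-3p for 2, and miR-669a-5p for 12 and miR-669a-3p for 11. Of 13 hairpin names with both arms at 1 CPM or more, the 3p arm had the higher log2 ratio in 10, miR-466h and miR-466c went the other way, and miR-466i had equal counts in both arms. The median of the 3p minus the 5p log2 ratio was 0.50, and 0.58 without the 0.5 CPM added, with the same count of 10. Among 130 other hairpin names of the series it was 0.067, and 73 (56.2%) had the higher ratio on the 3p side. The largest gaps were in miR-466b (1.11, or 1.39 without the addition) and miR-669f (1.08, or 1.28). Summed over all 4 families, 5p reads made up 82.9% of the reads with a named arm in Th0 (82.0 to 83.8%) and 79.0% of those in Th17 (78.1 to 79.9%). That sum is weighted toward the most abundant hairpins.

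Per hairpin name, 24 had at least 20 reads of both arms together in each library, and the 5p share was lower in Th17 in 18 of them. Some of these differences were very small: miR-467e at -0.02 points, miR-467a at -0.18, miR-467c at -0.46 and miR-467b at -0.55. The same count was not taken over the other hairpin names of the series. In miR-297a, miR-669a and miR-669d the 2 arms are listed for unlike numbers of hairpins, in miR-669d 2 for 5p and 1 for 3p. Only miR-467d had intervals that do not overlap, at 88.6% (86.6 to 90.4%) and 84.6% (82.7 to 86.4%). miR-669a was at 75.0% (72.6 to 77.4%) and 70.8% (68.5 to 73.0%). miR-466b went from 17.3% (11.3 to 24.8%) to 7.41% (4.11 to 12.1%), and miR-669f from 61.5% (47.0 to 74.7%) to 39.7% (27.0 to 53.4%). In miR-467a the share was nearly the same, 87.3% and 87.2%. The families differed in the arm they keep: miR-467b, miR-467c, miR-467e, miR-669b, miR-669d, miR-669l and miR-669p were at 97.1% 5p or more in both libraries. On the other side, miR-466a, miR-466b, miR-466d, miR-466e and miR-466f were at 23.0% or less. Within miR-466 the members did not all keep the same arm, since miR-466h was at 85.3% and 86.6% 5p and miR-466c at 63.0% and 64.4%. Summed by family, the 5p share in Th0 was 91.5% for miR-467, 84.0% for miR-669, 50% for miR-297 and 37.3% for miR-466.

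**Figure D4:**
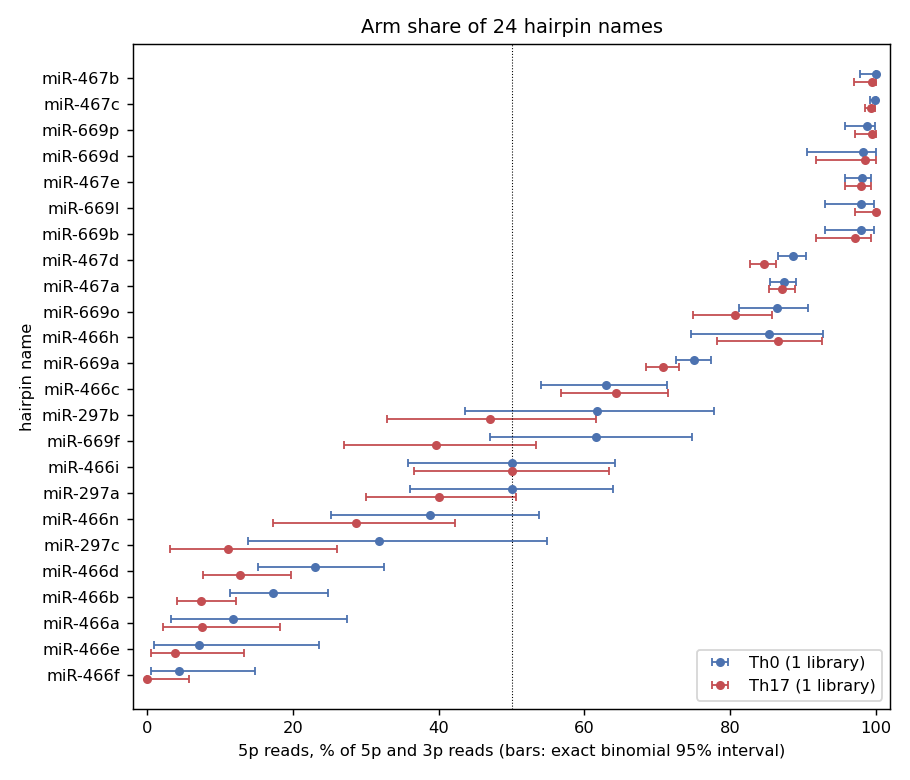
Percentage of the reads of both arms that were 5p (x axis, %), for the 24 hairpin names having 20 or more reads in each library, Th0 and Th17, 1 library each. Bars are exact binomial 95% intervals; they stand apart for miR-467d, and the Th17 point lies to the left in 18 of the 24.

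Outside the 4 families, 5 miRNAs held 4 CA or 4 UG dinucleotides in a row. miR-574-5p, the most abundant of them, has a UG repeat through its middle and was 1.68-fold higher in Th17 (1.31 to 2.15), from 11.4 to 19.0 CPM. Its sequence and that of miR-672-5p are given for comparison with the members above, with the seed in capitals.
miR-574-5p: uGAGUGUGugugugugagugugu
miR-672-5p: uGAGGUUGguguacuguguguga
miR-672-5p was 5.06-fold higher (2.40 to 12.3), on 8 and 58 reads. The intervals of miR-32-3p (35 and 34 reads), miR-1187 (4 reads in each) and miR-3082-5p (1 and 0) included 1. The median log2 ratio of the 5 was -0.23, and they summed to 143 and 324 reads.

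**Figure D5:**
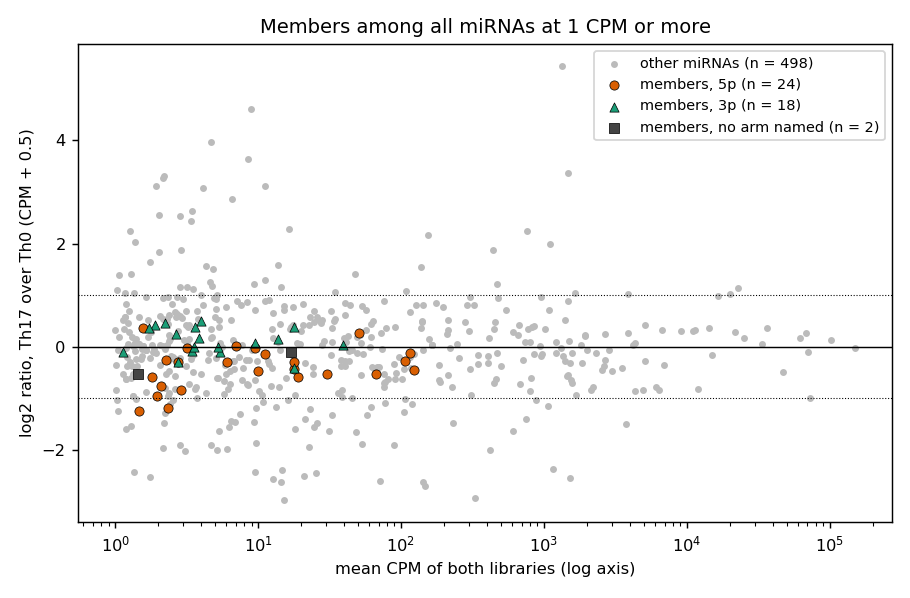
Log2 ratio of Th17 over Th0 with 0.5 CPM added (y axis) against mean CPM (x axis, log scale) for the 542 miRNAs at 1 CPM or more, each point 1 miRNA. Dotted lines mark 2-fold; the 44 members, coloured by arm, lie mostly between them, and the 5p members mostly below 0.

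Markers of the labelled cells and of others were read in the same libraries. The 5 miRNAs taken for the labelled cells, miR-142a-5p, miR-142a-3p, miR-150-5p, miR-155-5p and miR-181a-5p, had a summed level of 95954 CPM (Th0) and 133180 CPM (Th17). miR-142a-5p alone was at 58347 and 65898 CPM. These 5 are not confined to T cells, so their sum does not identify the cell type. Of them miR-142a-3p was lower in Th17, at 2194 and 1153 CPM, and the other 4 were higher. Of 5 miRNAs of embryonic stem cells and trophoblast, where the Sfmbt2 array is best known, 1 was listed: miR-295-3p, with 3 and 4 reads. The other 4, miR-290a-5p, miR-291a-3p, miR-294-3p and miR-302a-3p, had 0 reads in both libraries. Both endothelial markers (the 2 arms of miR-126a, 191 and 85.9 CPM together) were lower in Th17. The 3 epithelial ones in the list (miR-200a-3p, miR-200b-3p and miR-429-3p, 230 and 75.6 CPM) were lower too. Outside that list, miR-141-3p of the same miR-200 family was lower (log2 ratio -0.42) and miR-200c-3p was higher (0.45). The 2 myeloid ones summed to 3.35 and 6.93 CPM, the 2 erythroid ones to 0.718 and 2.17, and the 3 liver, muscle and neural ones to 0 and 0.251. The part of other cells in the members' differences was not tested.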

How the data were processed

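Small RNA libraries from Th0 and Th17 cultures were analysed, 1 deposited column of reads per group. Per the file headers, the authors deposited whole-number read counts per mature miRNA and a TPM value; the TPM is the count divided by 1 total per library, 9072995 for Th0 and 13070648 for Th17, with no length term. Per the submitters' processing notes the genome build was mm10. The sources used here name no trimming tool, aligner or rule for multiply matching reads. The counts were divided by the column sum (8358010 and 11975371 reads) and given as CPM, and an unlisted miRNA counted as 0. Ratios carry exact Clopper-Pearson 95% intervals conditional on both counts. Calls needed a mean of 10 CPM, 2-fold and an interval excluding 1. Log2 ratios of single miRNAs have 0.5 CPM added, except in the plot of member ratios; those of sums, and all folds, do not. Alternative scalings used edgeR 4.0.16 and DESeq2 1.42.0 in R 4.3.3. The script was tested on simulated data. Named miRNAs were all members at 10 CPM or more, the 4 most abundant of each family, members in 1 library, pairs with equal counts, hairpins of the arm shares, and up to 6 of each other list; further members, and the 4 whose sequences are shown, were named after their values were seen. A list of other miRNAs sharing the seed of a member at 10 CPM or more was planned; it was formed instead from the 4 members with a RefSeq sequence and had 0 entries. The members and lists were chosen with earlier results of these data known.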

Additional observations from a re-analysis of the deposited data

How the results depend on the processing

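No paired analysis was possible because each group has 1 library. Of 188 alternative values, 165 stayed within the interval or within 1.5 times the count, 23 moved and 0 reversed. Only a ratio whose reported interval excluded 1 could be labelled reversed, so counts could not be. Among the other ratios, the log2 ratio of miR-466 changed sign under DESeq2 scaling, from -0.063 to 0.016. Without the 10 most abundant miRNAs in the totals, so did the 3p arms (from 0.063 to -0.067) and miR-669a-3p (from 0.033 to -0.095). DESeq2 size factors shifted every log2 ratio by 0.078 and totals without the 10 most abundant miRNAs by -0.13. Under those 2 settings the log2 ratios of the sums were, in that order, -0.15 and -0.36 for all 4 families (-0.23 as reported), -0.25 and -0.46 for miR-467, -0.091 and -0.30 for miR-669, and -0.22 and -0.43 for the 5p arms. Without the 10 most abundant, miR-466 was at -0.19, the 3p arms at -0.067 (0.14, 0.034 to 0.25, under DESeq2), and 0 members were higher by interval (2 as reported). With a minimum of 50 CPM, 1 member was higher and 3 lower by interval. Members 2-fold lower numbered 3 with a minimum of 1 CPM, 3 with no minimum and, at 1.5-fold, 1, against 0 as reported. With a minimum of 5 CPM, 12 of 14 5p members were lower and 4 of 7 3p members higher, and with 10 CPM 10 of 11 and 3 of 4. The counts and sums by arm, and the arm pairs with no pseudocount, were added after seeing the data. Without both miR-466i members, 20 of 23 5p members were lower and 12 of 17 3p members higher. Within 1 family and arm, miR-669d-2-3p and miR-669l-3p had equal counts (2 reads and 0). Counting them once left the family sums within those bounds. It could not change the member ratios or calls, which were of members at 10 CPM or more.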
